A study of Homo sapiens with 2 samples.

Results

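The genes described here encode the proteasome: its subunits, the chaperones that assemble it and the factors that open or block it, all with symbols that begin with PSM. They were chosen by symbol alone, as every probe set whose single annotated gene symbol begins with PSM, a letter from A to G and a number, with pseudogenes left out. The rule gave 111 probe sets of 46 genes, of 45253 probe sets and 18239 genes with 1 symbol in the table. Of these 46 genes, 44 are proteasome genes, while PSMC3IP and PSME3IP1 fit the symbol rule as partners of PSMC3 and PSME3 and are no subunits. PSMB10, PSMC5, PSMD7 and PSMD13 have no probe set of their own symbol in the annotation and are not analysed here.

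The proteasome degrades proteins that carry ubiquitin chains. Its 20S core is a barrel of alpha and beta rings, and the beta subunits PSMB5, PSMB6 and PSMB7 hold the active sites inside. The 19S regulator caps the barrel: its lid removes ubiquitin, and the ATPase ring of its base unfolds the substrate and threads it into the core. Dividing cells, carcinoma lines included, make proteasomes in large amounts, and the subunit genes can be raised together by the transcription factor NFE2L1 when proteasome activity is short.

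GFP-SAS cells, an established tongue squamous cell carcinoma line that carries green fluorescent protein, were given an LNA/DNA antisense oligonucleotide at 25 nM, and RNA was taken at 24 h. In the anti-miR group the strand was directed against miR-361-3p, and in the control group it was a non-target (NT) strand of the same chemistry. Each group was 1 array, so no difference below has a replicate error or a p-value, and every difference compares these 2 arrays. Each probe set has a log2 expression value from RMA, and a difference is anti-miR minus control on that scale. A probe set was retained when it reached its array's median (4.64 for the anti-miR and 4.63 for the control) on at least 1 array, and a gene's value is the mean over its retained probe sets.

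The oligonucleotide's target is shown first because it defines the treatment, with its seed, bases 2 to 8, in capitals. The sequence is that of RefSeq (GRCh38.p14, chrX:85903641-85903663, minus strand).
hsa-miR-361-3p: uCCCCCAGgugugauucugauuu

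Upstream sequence is shown for 4 genes that were at least 1.5-fold lower on the anti-miR array and, for contrast, for PSMC3, the single subunit gene at least 1.5-fold higher. Each run holds the 150 bases before the RefSeq start site (GRCh38.p14), on the strand of the gene. Capitals mark matches on either strand to TGANNNNGC, the short form of the antioxidant element that NFE2L1 and NFE2L2 bind with small MAF proteins, or to CCAAT, the box bound by NF-Y.
PSMD10, chrX:108091543-108091692, minus strand: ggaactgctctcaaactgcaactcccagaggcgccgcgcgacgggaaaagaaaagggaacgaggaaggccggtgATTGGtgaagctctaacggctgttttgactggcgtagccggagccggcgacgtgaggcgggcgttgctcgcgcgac
PSME4, chr2:53970994-53971143, minus strand: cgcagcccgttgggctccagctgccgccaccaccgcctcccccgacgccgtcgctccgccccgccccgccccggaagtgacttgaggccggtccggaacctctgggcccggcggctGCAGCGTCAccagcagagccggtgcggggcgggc
PSMD12, chr17:67366578-67366727, minus strand: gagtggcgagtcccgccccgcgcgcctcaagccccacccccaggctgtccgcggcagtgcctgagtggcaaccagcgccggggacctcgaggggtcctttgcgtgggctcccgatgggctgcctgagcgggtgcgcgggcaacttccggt
PSMD14, chr2:161308275-161308424, plus strand: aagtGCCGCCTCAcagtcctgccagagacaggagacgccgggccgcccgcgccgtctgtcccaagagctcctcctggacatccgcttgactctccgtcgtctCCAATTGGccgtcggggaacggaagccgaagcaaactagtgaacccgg
PSMC3, chr11:47426440-47426589, minus strand: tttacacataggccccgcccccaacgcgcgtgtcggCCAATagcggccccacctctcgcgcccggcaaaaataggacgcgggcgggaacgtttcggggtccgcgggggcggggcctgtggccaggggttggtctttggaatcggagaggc

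Within the 250 bases before the start site, TGANNNNGC was found in 25 of the 40 PSM genes with a promoter entry (62.5%), against 40.3% of 27305 genes in the table. CCAAT was found in 19 of 40 (47.5%), against 37.0% of all genes. Both strands were searched, genes with several start sites were counted once, and a match of letters is not a bound site. In the runs shown no match to one motif overlaps a match to the other, and CCAAT of PSMD14 matches on both strands in one stretch. Of the 4 lower genes, TGANNNNGC was present for PSME4, PSMD12 and PSMD14 and CCAAT for PSMD10 and PSMD14, and PSMC3 held both. The matches of PSMD12 and PSMC3 to TGANNNNGC lie further upstream than the bases shown. PSMA7, PSMB1, PSMB6, PSMB7, PSMD4 and PSMG3 had no promoter entry.

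The arrays were alike in their distributions, and the median over all 11272 genes with a retained probe set differed by 0.13, with quartiles of -0.21 and 0.33. Spiked poly-A control RNAs read 0.32 ± 0.19 higher with the anti-miR (SD over their 12 probe sets), and their part in the small differences below was not tested. Of the 46 genes, 44 were measured, with 101 of their 111 probe sets retained. PSMA8, the testis-specific alpha subunit, read 2.32 with the anti-miR and 2.55 with the control strand, and PSMB11, the beta subunit of the thymus, 3.68 and 3.89, both below the array medians. All 4 testis markers (DAZL, DDX4, SYCP3 and TNP1) and all 5 fibroblast markers lay below the medians as well. Among leukocyte markers only CD68 was retained (1 of 5), and of 3 endothelial markers PECAM1 (5.35 with the anti-miR and 5.03 with the control strand) and VWF (5.11 and 4.69) were, at dim levels. Among the squamous markers with a probe set of their own, 8 of 9 were measured: KRT5 read 8.89 and 9.08, SFN 10.6 and 10.5 and CDH1 8.64 and 9.18, while KRT14, a keratin of basal cells, was below the medians (3.87 and 3.63). Of the 8, 6 were below 0, and ITGA6, an integrin of basal cells, was the only one at least 1.5-fold lower (-1.79). The part of these markers in the differences below was not tested. In RNA from a whole culture, fewer cells of a type and less RNA per cell cannot be told apart.

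Most proteasome genes differed little, and a minority passed 1.5-fold in either direction, in shares below those over all genes. Of the 44 measured PSM genes, 31 were above 0 (70.5%, where the share over all genes was 62.3%) and 13 below. The median difference was 0.22, against 0.13 over all genes. That median turned to -0.03 with the trend on gene length subtracted. At 1.5-fold, 2 were higher (4.55%), where the share over all genes was 8.23%, and 4 were lower (9.09%), where it was 14.2%. Neither share exceeded its background. With the median of all genes subtracted the split was 1 higher and 6 lower, where the shares over all genes were 4.43% and 17.3%. With the trend on gene length subtracted it was 1 and 4, where they were 6.18% and 11.4%. The highest were PSMC3IP and PSMC3, and the lowest were PSMD10, PSME4, PSMD12 and PSMD14. Of the 31 genes with several retained probe sets, 4 had probe sets on both sides of 0 (PSMB2, PSMB7, PSMG4 and PSME3). Of the 111 probe sets, 40 are of the _s_at or _x_at type, which can read transcripts of more than 1 gene.

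**Figure D1:**
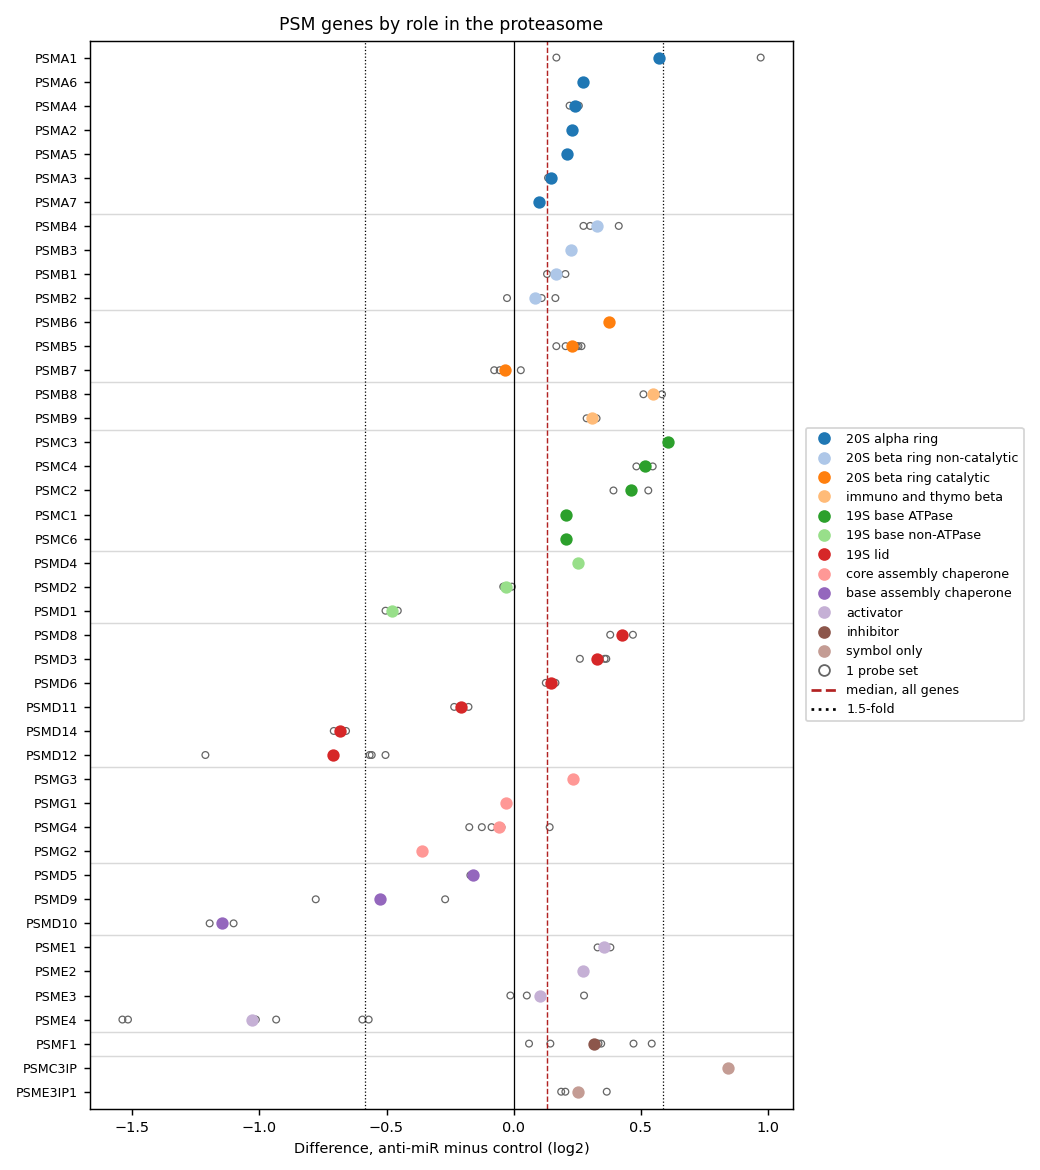
Difference between the arrays (log2, anti-miR minus control) for the 44 measured PSM genes, grouped by role. Filled points are gene values and open points single retained probe sets, the dotted lines mark 1.5-fold and the dashed line the median of all genes (0.13). The alpha ring, beta ring and ATPase genes lie from -0.03 to 0.60, while PSMD10, PSME4, PSMD12 and PSMD14 lie beyond the lower dotted line.

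The alpha ring forms the gated entrance of the core, and its 7 measured constitutive genes were all above 0 before any trend was subtracted, with a median of 0.23. PSMA2 read 10.9 with the anti-miR and 10.7 with the control strand, a difference of 0.23 in both of its probe sets. PSMA6, the highest of those with 1 probe set, read 11.1 and 10.9, a difference of 0.27. PSMA7, the lowest, read 12.0 and 11.9, a difference of 0.10. PSMA4 differed by 0.24, PSMA5 by 0.21 and PSMA3 by 0.14. These 6 genes moved within a narrow band of small differences. PSMA1 had the largest mean, 0.57, but its probe sets disagreed: the bright one read 11.4 and 11.2, a difference of 0.17, and a dimmer one 6.59 and 5.62, a difference of 0.97.

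The structural beta subunits gave a similar picture. PSMB4 read 10.4 with the anti-miR and 10.0 with the control strand (0.33 ± 0.07, SD over 3 probe sets), and PSMB2 read 9.46 and 9.38 (0.08 ± 0.10, SD over 3 probe sets). PSMB3 differed by 0.23 and PSMB1 by 0.17. With the trend on gene length subtracted, the medians turned to -0.03 for the alpha ring and -0.02 for the structural beta subunits, so the direction of these groups depends on that scaling. No gene of the constitutive core reached 1.5-fold.

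The catalytic subunits did not share one direction. PSMB5, which carries the chymotrypsin-like site that proteasome drugs block, was higher in all 5 of its probe sets, with 9.38 on the anti-miR array, 9.15 on the control array and a difference of 0.23 ± 0.04 (SD over 5 probe sets). PSMB6, with the caspase-like site, read 10.6 and 10.3, a difference of 0.37 from 1 probe set. PSMB7, with the trypsin-like site, read 10.8 on both arrays, a difference of -0.03 ± 0.06 (SD over 3 probe sets). PSMB7 was the single constitutive core gene below 0. Subtracting the trend on length put 7 of the 14 core genes below 0, PSMB5 among them (-0.05), and PSMB7 at 0.04.

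The immunoproteasome replaces these sites with interferon-inducible subunits whose products suit MHC class I presentation. PSMB8, the counterpart of PSMB5, read 8.75 with the anti-miR and 8.20 with the control strand (0.55 ± 0.05, SD over 2 probe sets), short of 1.5-fold. PSMB9, the counterpart of PSMB6, read 6.88 and 6.57 (0.31 ± 0.03, SD over 2 probe sets). The differences of both exceeded the spread between their own probe sets. That spread is technical and holds no variation between cultures. Under the processing alternatives PSMB8 fell as low as 0.28 and PSMB9 0.04, so the size of these differences depends on the scaling. The dimmer probe set of PSMB9 read 6.59 with the anti-miR and 6.26 with the control strand. Both lay below the highest nonspecific control probe set of their array (7.16 and 6.87).

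The ATPases of the 19S base were all above 0, with a median of 0.46 over 5 genes, the highest of the subunit groups of the constitutive proteasome. PSMC3 read 9.50 with the anti-miR and 8.89 with the control strand, 1.52-fold higher from 1 probe set, just past the threshold and 0.33 with the trend on length subtracted. PSMC4 read 8.79 and 8.27 (0.51 ± 0.05, SD over 2 probe sets), and PSMC2 8.58 and 8.12 (0.46 ± 0.10, SD over 2 probe sets). PSMC1 and PSMC6 differed by 0.21 each. Subtracting the trend on gene length lowered the median to 0.23 and put PSMC1 (-0.03) and PSMC6 (-0.01) below 0. PSMC1 has 13 processed or other pseudogenes in the RefSeq table and was read by _x_at probe sets alone, which can pair with similar transcripts, so its value is uncertain. The same limit holds for PSME2 (6 pseudogenes), PSMA6 (4), PSMC6 (3) and PSMD4 (1), each read by 1 retained _s_at or _x_at probe set.

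The other base subunits were split. PSMD1, the scaffold that anchors the ubiquitin receptor ADRM1, was lower in both probe sets, which read 9.64 and 8.85 on the anti-miR array against 10.1 and 9.31 on the control array. Its difference was -0.48 ± 0.03 (SD over 2 probe sets), short of 1.5-fold. PSMD2, the scaffold where USP14 and shuttle factors dock, differed by -0.03 ± 0.02 (SD over 3 probe sets). PSMD4, a ubiquitin receptor, read 9.68 and 9.43, a difference of 0.25.

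The lid showed the widest split of any subunit group, from -0.71 to 0.43, with 3 of 6 measured genes above 0 and 3 below. PSMD14, the deubiquitinase that cuts chains off substrates, was 1.61-fold lower: its probe sets read 9.30 and 8.98 with the anti-miR and 10.0 and 9.64 with the control strand (-0.68 ± 0.03, SD over 2 probe sets). PSMD12, a scaffold subunit, was 1.64-fold lower on average. Its 4 probe sets read 8.85, 8.18, 9.19 and 8.57 with the anti-miR against 9.42, 8.68, 9.75 and 9.78 with the control strand. All were lower, 3 of them by less than 1.5-fold (-0.50 to -0.57) and the fourth by more (-1.21). PSMD11, whose level has been linked to the number of assembled proteasomes in stem cells, read 9.46 and 9.66 (-0.21 ± 0.04, SD over 2 probe sets).

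The remaining lid genes lay on the other side. PSMD8 read 8.65 with the anti-miR and 8.23 with the control strand (0.43 ± 0.04, SD over 3 probe sets), PSMD3 8.96 and 8.64 (0.33 ± 0.06, SD over 3 probe sets), and PSMD6 differed by 0.15. All retained probe sets of each lid gene had one direction. The split of the lid is thus between genes, and not between probe sets of a gene. It also runs along gene length. The lower genes span 103 kb (PSMD14), 38.8 kb (PSMD11) and 28.7 kb (PSMD12). The higher genes span 17.2 kb (PSMD3), 13.5 kb (PSMD6) and 9.25 kb (PSMD8). Under the processing alternatives PSMD6 fell as low as -0.13, PSMD3 0.08 and PSMD8 0.15. The part of gene length in this split was not tested.

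The chaperones that build the base were, among those with a PSM symbol, the lowest group, with all 3 genes below 0 and a median of -0.52. PSMD10, also called gankyrin, escorts the ATPase PSMC4 and is known as an oncoprotein that binds CDK4 and promotes loss of RB1 and p53. It was the lowest PSM gene: its probe sets read 8.67 and 8.19 on the anti-miR array against 9.87 and 9.29 on the control array, 2.22-fold lower (-1.15 ± 0.07, SD over 2 probe sets). PSMD10 ranked 592 of 11272 genes by decrease. PSMD9, which escorts PSMC3 and PSMC6, differed by -0.52, with a bright probe set at 7.33 against 8.11 and a dim one at 5.54 against 5.81. PSMD5, which holds PSMC1, PSMC2 and PSMD2, differed by -0.16 ± 0.01 (SD over 2 probe sets). The median of the 3 was -0.68 with the trend on length subtracted. Their ATPase partners lay above 0 in the values as deposited, PSMC3 at 0.60, PSMC4 at 0.51, PSMC2 at 0.46 and PSMC1 and PSMC6 at 0.21 each, while their partner PSMD2 was at -0.03.

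The chaperones of the core differed less. PSMG1 and PSMG2 pair to scaffold the alpha ring, and read 9.80 and 9.57 on the anti-miR array against 9.83 and 9.93 on the control array, differences of -0.03 and -0.36 from 1 probe set each. PSMG3 and PSMG4 form the second pair. PSMG3 differed by 0.23 (6.55 against 6.32), and PSMG4 by -0.06 ± 0.12 (SD over 5 probe sets). The only probe set of PSMG3 lay below the highest nonspecific control probe set of each array (7.16 with the anti-miR and 6.87 with the control). Under the processing alternatives PSMG3 fell as low as -0.02. None of these core chaperones reached 1.5-fold.

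**Figure D2:**
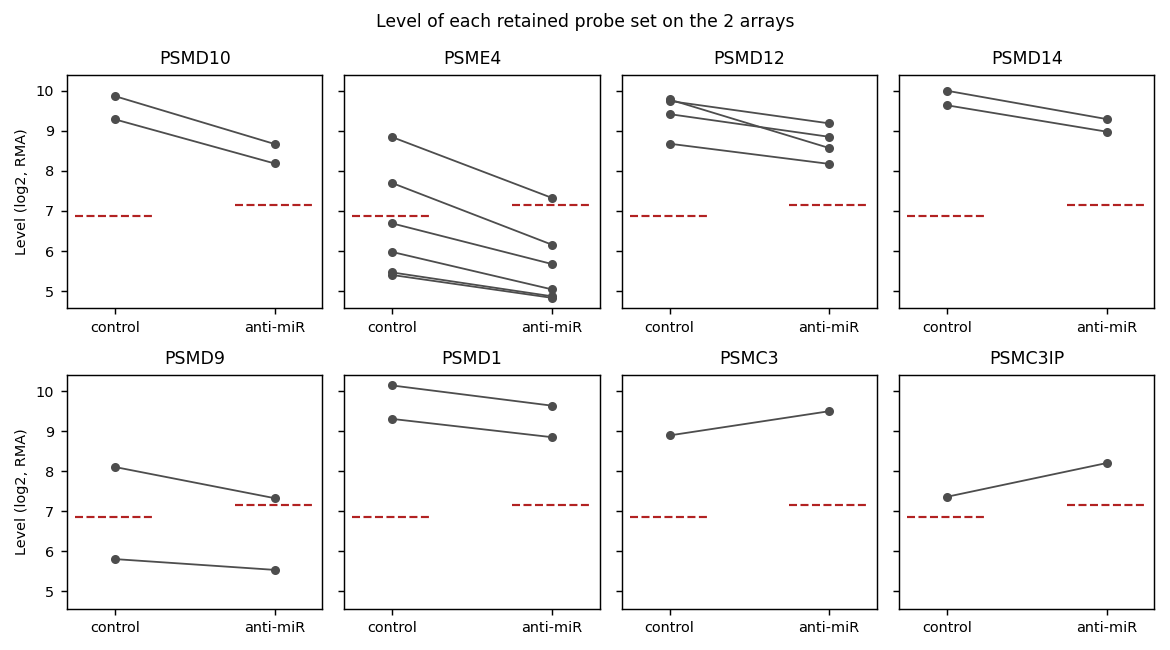
Level (log2) of each retained probe set on the control and the anti-miR array for the 6 PSM genes past 1.5-fold and for PSMD9 and PSMD1. Each line is 1 probe set, and the dashed bars mark the highest nonspecific control probe set on each array (6.87 and 7.16). All probe sets of PSMD10, PSMD12 and PSMD14 slope downward and stay above these bars, while 5 of 6 of PSME4 lie below the bar on the anti-miR array.

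The activators, which dock on the core in place of the 19S regulator, lay on both sides of 0. PSME1 and PSME2, interferon-inducible subunits of the PA28 ring that serves antigen processing, read 8.76 and 9.99 on the anti-miR array against 8.41 and 9.72 on the control array, differences of 0.35 ± 0.03 (SD over 3 probe sets) and 0.27 (1 probe set). PSME3, the nuclear PA28 subunit, differed by 0.10 ± 0.15 (SD over 3 probe sets). PSME4, the nuclear activator PA200 that serves breakdown of acetylated histones, was lower in all 6 probe sets, by -0.57 to -1.54, and 2.04-fold lower on average. Its brightest probe set read 7.33 against 8.84. It is the only one of the 6 above the nonspecific control probe sets on both arrays, so the average fold is not an exact size. PSMF1, which can block the core, differed by 0.32 ± 0.19 (SD over 6 probe sets).

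Both genes that fit the symbol rule without being subunits were higher. PSMC3IP, a cofactor of meiotic and homologous recombination named for binding PSMC3, read 8.20 with the anti-miR and 7.36 with the control strand, 1.79-fold higher from 1 probe set. PSME3IP1, a nuclear partner of PSME3, differed by 0.25 ± 0.10 (SD over 3 probe sets). Without them the PSM genes held 1 higher (2.38%) and 4 lower (9.52%) of 42, where the shares over all genes were 8.23% and 14.2%.

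Gene length moved with the differences. Over the 44 PSM genes the difference and the genomic span had a Spearman rho of -0.46, and over 11261 genes with a known span -0.49. These are descriptions over genes of the same arrays. Of the 6 PSM genes over 60 kb, 5 were below 0, with a median of -0.42, and all 3075 genes of that length had a median of -0.35. The 26 PSM genes of at most 20 kb had a median of 0.24, against 0.26 over 4568 such genes. PSMD14 (103 kb), PSME4 (107 kb) and PSMD1 (116 kb) are long, and with the trend on length subtracted they differed by -0.39, -0.72 and -0.13. The part of gene length in these differences was not tested.

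PSMD10, PSMD12 and PSMD9 are shorter. PSMD10 spans 7.34 kb, and 28 of 4568 genes of at most 20 kb (0.613%) were as low or lower. Among the 3618 genes of 20 to 60 kb, 6.58% were as low as PSMD12 or lower and 10.4% as low as PSMD9. With the trend on length subtracted PSMD10 differed by -1.42, PSMD12 (28.7 kb) by -0.88 and PSMD9 (29.5 kb) by -0.68. In that setting 4 of 44 PSM genes (9.09%) and 11.4% of all genes were at least 1.5-fold lower. PSMA1 departed the other way, at 0.99, but it spans 139 kb as annotated and its mean is set mostly by the dimmer probe set.

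**Figure D3:**
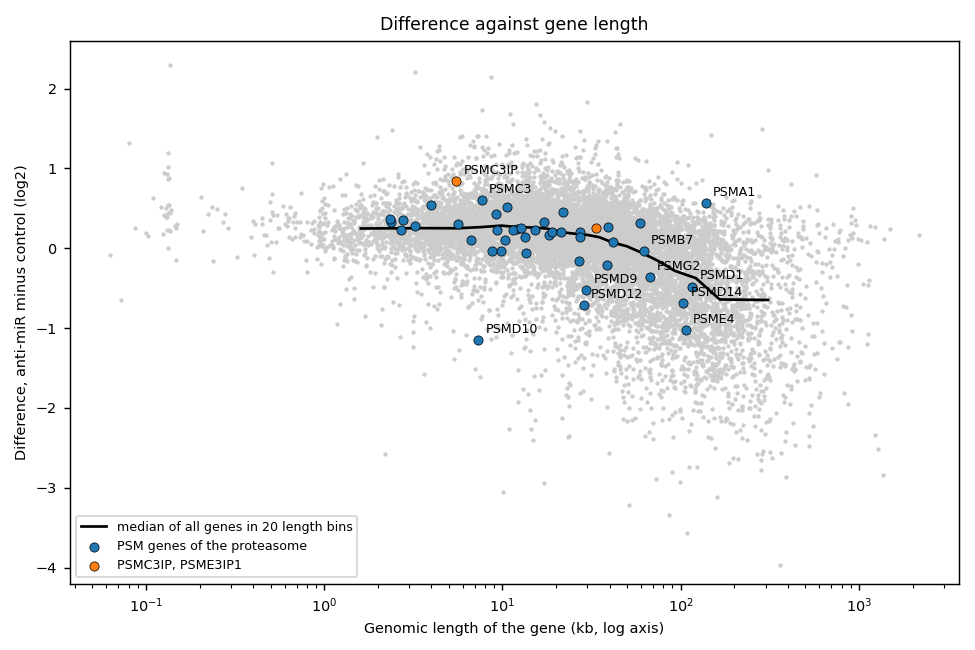
Difference between the arrays (log2) against the genomic length of the gene (kb, log axis), with all genes in grey, their median in 20 length bins as a line, and PSM genes coloured. Most PSM genes follow the line, PSMD14, PSME4 and PSMD1 lie where long genes are low, and PSMD10 lies below the line, where 28 of 4568 genes of at most 20 kb were as low or lower.

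Proteasome parts and partners without a PSM symbol were described from a list of 18 genes, of which 15 were measured. The list held 5 genes at least 1.5-fold lower (33.3%) and 1 higher (6.67%), against 14.2% and 8.23% over all genes, and its median was -0.20 (0.03 with no filter on level). Assembly factors and stable subunits on the list differed by less than 1.5-fold. POMP, which completes core assembly with the PSMG chaperones, read 10.3 and 10.2 (0.15 ± 0.10, SD over 3 probe sets), and ADRM1, a ubiquitin receptor of the base, 10.2 and 9.77 (0.46 ± 0.08, SD over 3 probe sets). PAAF1, a base chaperone, differed by 0.12, and SEM1, a small lid subunit, by -0.29 ± 0.28 (SD over 3 probe sets). SEM1 turned to 0.27 and POMP to -0.08 with the trend on length subtracted.

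Factors that bind the proteasome reversibly lay on both sides of 0. ZFAND5, which activates the particle, was higher in all 9 probe sets, with 7.68 against 7.27 (0.41 ± 0.11, SD over 9 probe sets), and PITHD1 differed by 0.09. UCHL5, a deubiquitinase that docks on ADRM1, read 6.08 with the anti-miR and 7.80 with the control strand, 3.29-fold lower (-1.72 ± 0.52, SD over 6 probe sets). USP14, a deubiquitinase that docks on PSMD2, read 6.47 and 7.59, 2.17-fold lower (-1.12 ± 0.25, SD over 4 probe sets). Together with PSMD14, all 3 deubiquitinases of the 19S regulator were therefore at least 1.5-fold lower, a grouping made after their values were seen. PSMD14 was not with the trend on length subtracted (-0.39). UBQLN1, a shuttle that carries ubiquitinated proteins to the proteasome, was 3.80-fold lower in 3 probe sets. ECPAS, which tethers core and regulator, was 6.70-fold lower (5.15 against 7.90, 1 probe set), and UBE3C, a ligase that extends chains on bound substrates, 2.28-fold lower. UBQLN4 was 1.70-fold higher (7.06 against 6.30, 1 probe set) and did not pass the level of the nonspecific control probe sets. With no filter on level it differed by 0.29.

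These folds have limits. On the anti-miR array no retained probe set of ECPAS and UBE3C, and 1 each of UCHL5, USP14 and UBQLN1, lay above the nonspecific control probe sets, so the sizes are not exact. UBE3C (130 kb) and ECPAS (124 kb) are of a length at which the median gene was low. UCHL5, UBQLN1 and USP14 span 47.8 to 56.1 kb, near the top of the class of 20 to 60 kb (median 0.13). Over 60 kb the median was -0.35. With no filter on level ECPAS differed by -1.61, UCHL5 by -1.25 and UBE3C by -0.91. The filter on the mean level dropped a probe set of UBE3C and also left a smaller decrease for that gene. With the trend on length subtracted, 5 of the 15 measured genes of the list were at least 1.5-fold lower. The share over all genes was then 11.4%. The part of length in these folds was not tested.

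Genes that control proteasome transcription showed no common direction, with 2 of 10 measured genes higher, 2 lower and a median of 0.17, against 8.23% higher, 14.2% lower and a median of 0.13 over all genes. NFE2L1, the factor that raises proteasome genes when activity is short, was higher in all 6 probe sets, with 6.78 on the anti-miR array, 6.05 on the control array and a 1.65-fold difference (0.73 ± 0.15, SD over 6 probe sets). NFYA, a subunit of NF-Y, was 1.53-fold higher at a dim level (6.20 against 5.59), with no probe set above the nonspecific controls on either array. With no filter on level NFYA differed by 0.48, short of 1.5-fold. Then 1 of 11 genes of the list was higher, against 4.40% of all genes. NGLY1, the enzyme that strips sugars from NFE2L1 and is needed for its activation, was 2.27-fold lower (5.44 against 6.63, 4 probe sets). None of its probe sets lay above the nonspecific controls with the anti-miR, and 2 of 6 of NFE2L1 did on both arrays, so these folds are not exact sizes. NFE2L2, the related factor of the oxidative stress response, was 1.74-fold lower in 2 bright probe sets (-0.80 ± 0.0082, SD), from 9.80 with the control strand. With the trend on length subtracted none of this list was 1.5-fold higher and 3 were lower. The shares over all genes were then 6.18% and 11.4%.

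Genes known to respond when proteasomes are blocked were mostly higher; the list holds heat shock genes, whose values were known from earlier work on these arrays. Of 12 measured genes, 5 were at least 1.5-fold higher (41.7%) and none lower, and 11 were above 0, with a median of 0.48. Over all genes 8.23% were higher, 14.2% lower and 62.3% above 0, with a median of 0.13. ZFAND2A, an arsenite-inducible partner of the proteasome, read 8.51 with the anti-miR and 7.22 with the control strand, 2.45-fold higher from 1 probe set. DNAJB1, a co-chaperone, read 9.06 and 8.29, 1.71-fold higher in 3 bright probe sets. HSPA1B was 1.52-fold higher, but it is nearly identical to HSPA1A (difference 0.39) and signal may be shared. DDIT3, a factor of the stress response, was 2.21-fold higher (5.87 against 4.73), and HMOX1 1.53-fold (4.79 against 4.18), both no brighter than the nonspecific control probe sets. The only retained probe set of HMOX1, 1 of 3, reached the median on the anti-miR array alone, so its place among the 5 rests on that array. With no filter on level HMOX1 differed by 0.37. The count was then 4 of 12, against 4.40% of all genes. PMAIP1, a proapoptotic BH3-only gene, differed by 0.57, and TRIB3 by -0.16. The rest were small: SQSTM1 differed by 0.34, ATF3 by 0.29 and HSPB1 and BAG3 by 0.27 each. These lie near the 0.32 by which the spiked poly-A control RNAs read higher. The count was 3 to 6 of the measured genes under the settings that kept at least 9 of them. It was 3 with the trend on length or the median of all genes subtracted, where 6.18% and 4.43% of all genes were higher.

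The antigen processing list, which the immunoproteasome serves, had 2 of 13 measured genes higher and 1 lower, with a median of 0.21, against 8.23% and 14.2% over all genes. That median turned to -0.04 with the trend on length subtracted. HLA-E, a nonclassical class I molecule, was higher in all 6 probe sets, with 7.79 on the anti-miR array, 6.65 on the control array and a 2.21-fold difference (1.14 ± 0.31, SD over 6 probe sets). Only 2 of the 6 lay above the nonspecific control probe sets on the control array, so the fold is not an exact size. The HLA-E probe set of highest level differed by 0.90. Class I genes are alike in sequence, so signal may be shared between them. ERAP2, a peptide trimming enzyme, was 2.39-fold higher at a dim level (6.58 against 5.32, 1 probe set). B2M, the class I light chain, read 11.5 and 11.2 (0.24 ± 0.03, SD over 8 probe sets). TAP1 and TAP2, the peptide transporter, are neighbours of PSMB9 and PSMB8 in the MHC region, and differed by -0.15 and -0.86, TAP2 being 1.81-fold lower but short of 1.5-fold in its probe set of highest level (-0.39). The neighbours PSMB8 and PSMB9 lay above 0 (0.55 and 0.31), so the values of these 4 adjacent genes did not share a direction. No probe set of TAP1 lay above the nonspecific control probe sets on either array, and 1 of 4 of TAP2 did with the anti-miR. Under the processing alternatives PSMB9 fell as low as 0.04. The directions of TAP1 and PSMB9 are thus uncertain.

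**Figure D4:**
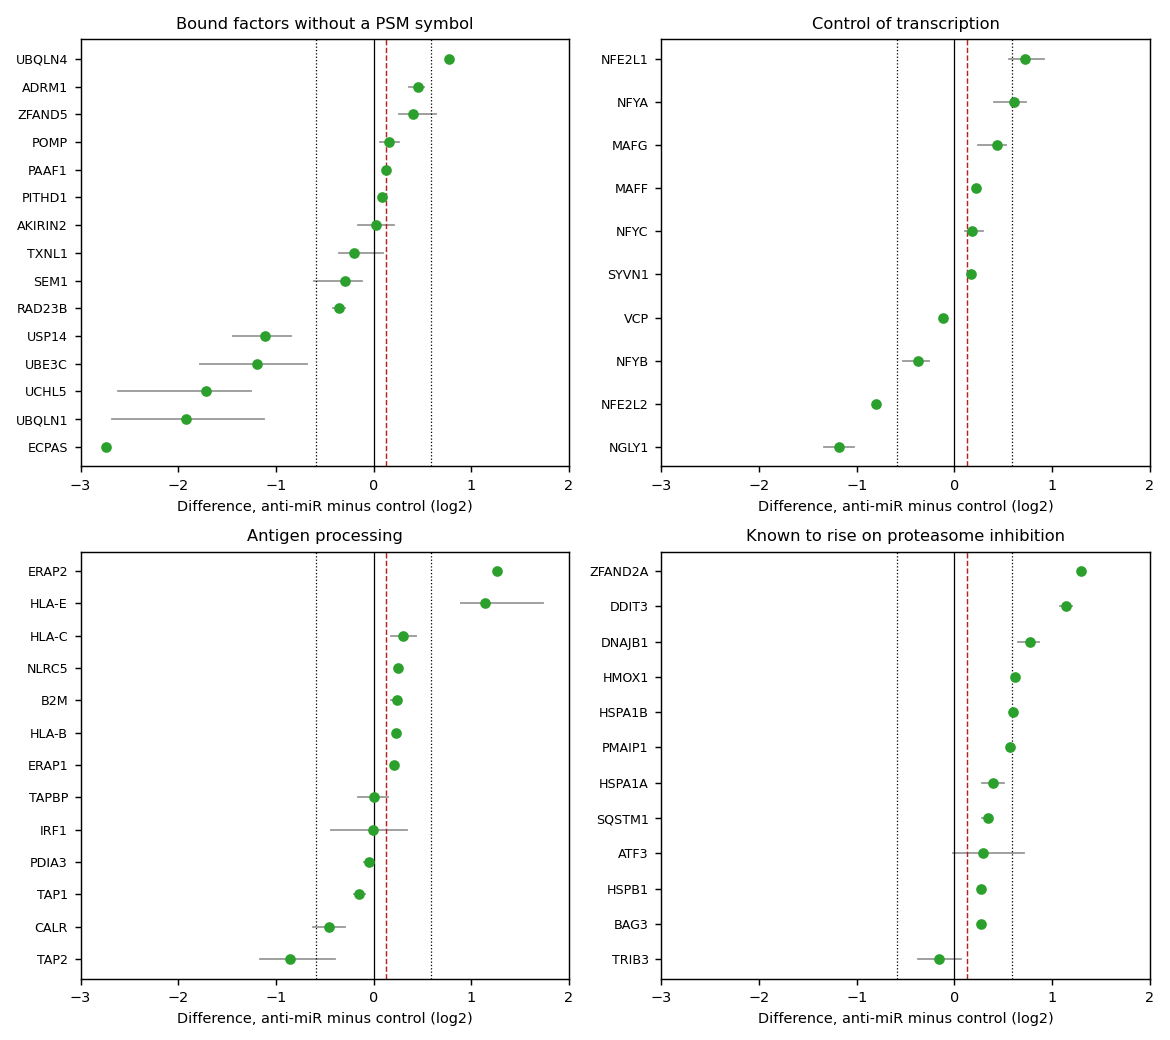
Difference between the arrays (log2) for measured genes of 4 lists around the proteasome. Points are gene values, bars span the lowest to the highest retained probe set, dotted lines mark 1.5-fold and the dashed line the median of all genes (0.13). UCHL5, USP14, UBQLN1, UBE3C and ECPAS lie beyond the lower line in the first panel, and 5 of 12 genes lie beyond the upper line in the last.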

How the data were processed

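The authors deposited 1 log2 value per probe set and array, from RMA per the submitters' processing notes. Neither the version of RMA nor the set of arrays it was run on is known here. Of 49386 probe sets in the table, 93 are array controls and 1327 carry several symbols. Symbols came from the platform annotation and were updated by Entrez ID through the RefSeq table (45172 of 45253 probe sets matched). The files name no genome build, so gene span served only as a property of a gene, and promoter and microRNA sequences are RefSeq's.

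Probe sets of a gene were averaged where they reached the 50th percentile on at least 1 array, and 1.5-fold was the threshold. With 1 array per group no test was possible. The pooled SD between probe sets of a gene was 0.29 over 6263 genes. As a background level served the highest of 23 nonspecific controls (7.16 with the anti-miR, 6.87 with the control).

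Alternatives were no filter, filters at the 75th percentile or on the mean level, the probe set of highest level, the median of probe sets, subtraction of the all-gene median or of lowess trends (fraction 0.3) on level or length, plain _at probe sets, and a 2-fold threshold. All members were accounted for. Full values were planned for those past 1.5-fold, the catalytic and immuno subunits, activators and chaperones and the extremes of each group. Outside the PSM symbols, POMP, ADRM1, SEM1, PAAF1 and NFE2L1 were named in any case, with up to 6 others by size; further genes were named after their values were seen. Members and lists were chosen with earlier results of these data known. The gene summary was tested on simulated data. Scripts ran in Python 3.11.15 with pandas 2.3.3, numpy 2.4.6, statsmodels 0.14.6, scipy 1.17.1 and matplotlib 3.10.9.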

Additional observations from a re-analysis of the deposited data

Results flagged for a closer look

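Probe sets assigned to a PSM gene together with another gene were outside the comparison, and their signal was above that of the control array. The 3 probe sets assigned to both PSMB10, the immunoproteasome counterpart of PSMB7, and CTRL, a chymotrypsin-like protease gene, were higher by a mean of 0.48 ± 0.13 (SD over 3 probe sets), at 7.11 with the anti-miR and 6.63 with the control strand. The 2 assigned to PSMA2 and C7orf25 were higher by a mean of 0.25 ± 0.03 (SD over 2 probe sets), close to the 0.23 of the probe sets of PSMA2 alone. Which gene of each pair gave the signal was not tested.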

How the results depend on the processing

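Leaving out a sample was not possible with 1 array in each group, and signal over background limits the values. No paired analysis was possible because there is 1 array on either side. The planned comparison of protein sequences was not run. Differences were called moved when they changed by more than the pooled SD between probe sets, 0.29. Against 2 genes at least 1.5-fold higher, subtraction of the all-gene median, of the trend on level and of the trend on length gave 1 each. The shares over all genes were 4.43%, 4.85% and 6.18%. Plain _at probe sets and a 2-fold threshold gave 0 each, where they were 9.25% and 1.23%. Against 4 lower, plain _at probe sets gave 1 (9 genes measured), where the share over all genes was 14.7%. The 2-fold threshold gave 2, PSMD10 and PSME4, where it was 6.98%. The other settings gave 3 to 6, where the shares over all genes were 7.37% to 18.8%. The activator median, 0.19, was -1.01 with plain _at probe sets, where PSME4 alone was left. The median over all members was -0.03 with the trend on length and -0.04 with plain _at probe sets. Of 361 single-gene values of members under the alternatives, 7 moved (PSMA1, PSMD1, PSMD14 and PSME4) and none past the threshold reversed. Small differences changed sign for 15 of 44 genes in at least 1 setting. PSMD12 was short of 1.5-fold with the probe set of highest level and with the median of probe sets (-0.56 each), and PSMD14 with the trend on length (-0.39). PSMC3 was short of it under each of the 3 subtractions, and PSMC3IP with the trend on length (0.57). PSMD10 stayed beyond 2-fold lower in every setting that measured it, from -1.42 to -1.15. The alternatives for genes outside the PSM symbols were chosen after seeing the data.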
